A study of Mus musculus with 8 samples.

Results

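The genes of the TGF-beta and BMP pathway were followed in whole corneas of mice whose eyes had received a glucocorticoid. A list of 51 ligands, receptors, SMAD proteins, antagonists, regulators and target genes was matched by symbol to the deposited table, and the 47 genes whose mean log2 value over all 8 libraries was at least 3 were kept, out of 14715 rows that passed the same minimum. The 4 genes below it were Inhba, Gdf15, Bmpr1b and Grem1, with means of -0.12, 1.27, 1.06 and 0.16. The nearest kept genes were Bmp5 and Acvr2b, with means of 4.16 and 4.63. One group of libraries came from adrenalectomized male wild-type C57BL/6J mice given dexamethasone eye drops, and the other from adrenalectomized male wild-type C57BL/6J mice given vehicle eye drops, both for 6 h. Surgery had been done at 8 weeks of age, about 4 weeks before the drops, so the mice of both groups lacked adrenal glucocorticoids. Each group had 4 libraries, and each library held total RNA of 4 to 6 pooled corneas from a number of mice that the labels leave unstated, so p-values measure the spread between pools and not between mice.

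The ligands of this family are secreted, often bound to carrier proteins in the matrix, and signal through pairs of type I and type II receptor kinases. TGF-beta and activin receptors phosphorylate SMAD2 and SMAD3, BMP receptors phosphorylate SMAD1 and SMAD5, and both sets enter the nucleus with SMAD4. Secreted antagonists trap the ligands, and inhibitory SMADs and ubiquitin ligases act inside the cell. In the cornea, TGF-beta is best known for its part in stromal wound healing, where it drives keratocytes towards myofibroblasts, and BMP ligands are made in the epithelium and stroma.

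Expression is given on the log2 scale of the deposited normalized values. The transformation behind them was not given, but they appear shrunken for genes with few reads. Gdf15, for instance, had 1.25 to 1.31 in all 8 libraries. If so, differences between groups are understated, most of all for low genes. A log2 fold change is the dexamethasone mean minus the vehicle mean on this scale. The labels state more than 40000000 reads per sample, and the depth of each library is not known more closely. Markers of corneal epithelium (Krt12, 19.73 ± 0.055 after dexamethasone and 19.74 ± 0.016 after vehicle), stroma (Kera, 14.53 ± 0.066 and 14.67 ± 0.029) and endothelium (Slc4a11, 12.62 ± 0.064 and 12.83 ± 0.069; SD, n = 4 each) were all high, as were conjunctival keratins such as Krt13 (15.12 ± 0.12 and 15.05 ± 0.074). Among these Kera and Slc4a11 were called lower after dexamethasone (adjusted p = 0.0241 and 0.00641), and their part in the results below was not tested. The conjunctival mucin gene Muc5ac had negative values in all 8 libraries. In whole corneas, fewer cells of a type and less RNA per cell cannot be told apart. Of the genes known from wounded epithelium, Krt16 set apart dexamethasone replicate 1 and vehicle replicate 3, at 9.33 and 11.20, against 7.33 to 8.04 elsewhere. Krt17 (8.84 and 9.83) and Krt6a (16.67 and 16.80) were also highest of their group in both. Krt6b was highest in vehicle replicate 3 (16.32), but dexamethasone replicate 1 (16.11) lay within the range of its group. Results that rest on these libraries are given with and without them.

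Of the 47 genes, 14 rose and 1 fell after dexamethasone at an adjusted p below 0.05 (limma, Benjamini-Hochberg over all 14715 rows). That is 31.9% of the genes, against 15.1% of all rows called. All rows were called higher in 9.04% and lower in 6.03% of cases. The genes that rose were the ligands Tgfb2, Bmp4, Bmp5 and Inhbb, the latent TGF-beta binding proteins Ltbp2 and Ltbp4, the receptors Tgfbr3, Acvr1b and Acvrl1, the SMADs Smad1, Smad4 and Smad6, and the antagonists Fstl3 and Nog. Bmp7 fell. The changes were small: the largest was 1.31-fold for Tgfbr3, and the 14 risers had a median log2 fold change of 0.15, against 0.18 for all rows called higher. Over all 47 genes the median log2 fold change was 0.062 and 36 lay above 0, against a median of -0.0029 over all rows tested. In 16 of the 47 genes, or 34.0%, the dexamethasone and vehicle libraries did not overlap, against 20.7% of all rows. Tgfbr3, Acvrl1, Ltbp4, Fstl3, Inhbb and Bmp7 were called under each of 19 alternative settings. The other 9 lost their call under 1 to 12 of them. In exact two-sided permutation tests of single genes, 13 of the 15 reached 0.0286, the smallest p that 70 assignments of 4 against 4 libraries can give, and Ltbp2 and Nog had exact p = 0.0571. The number of risers was 9 when dexamethasone replicate 2, dexamethasone replicate 4, vehicle replicate 2 or vehicle replicate 4 was left out. It was 14 when both libraries that stood apart were left out together, with Tgfb1 and Smad7 gained and Bmp4 and Nog lost. With a term for the lowest value of each library, the number of risers was 5. That value was -3.868563 to -3.86833 in dexamethasone libraries and -3.868433 to -3.868288 in vehicle libraries, and its relation to depth was not tested.

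**Figure D1:**
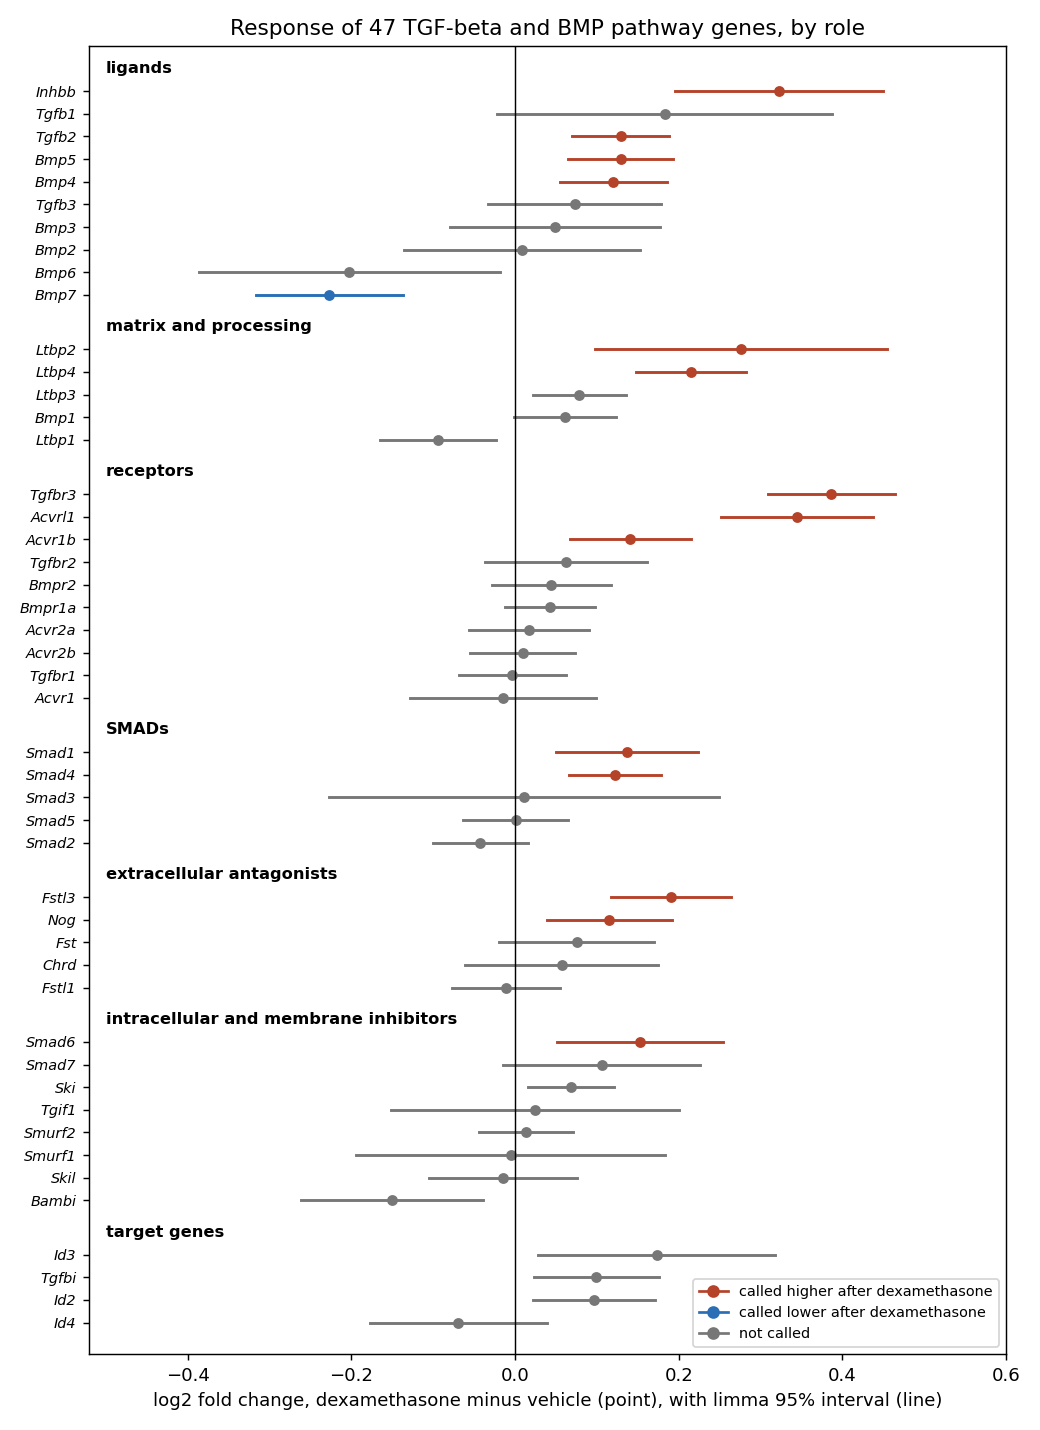
Log2 fold changes of the 47 genes by role, dexamethasone minus vehicle (x axis), with their limma 95% intervals as lines. The 14 genes called higher (red) lie between 0.12 and 0.39, Bmp7 (blue) lies at -0.23, and the 32 genes that were not called (grey) lie mostly close to 0.

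To show the start regions of genes that moved together, RefSeq promoter windows were read from 250 bases before to 50 bases after the start, on build GRCm38.p6. Of the 47 genes 33 matched the table, among them 10 of the 15 called. The windows of Ltbp4 (chr7:27337563-27337862, minus strand, the first of 3 listed starts), Fstl3 (chr10:79777024-79777323, plus strand), Inhbb (chr1:119422199-119422498, minus strand) and Tgfb2 (chr1:186705940-186706239, minus strand) are printed 5′ to 3′, being the 4 matched genes with the smallest adjusted p among those that were called. Capitals mark matches, on either strand, to the motifs searched.
Ltbp4: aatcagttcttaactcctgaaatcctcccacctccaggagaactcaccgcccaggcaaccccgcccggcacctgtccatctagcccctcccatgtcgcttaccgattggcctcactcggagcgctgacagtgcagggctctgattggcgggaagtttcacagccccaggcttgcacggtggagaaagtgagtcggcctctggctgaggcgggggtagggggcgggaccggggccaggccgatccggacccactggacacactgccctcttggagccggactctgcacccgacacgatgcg
Fstl3: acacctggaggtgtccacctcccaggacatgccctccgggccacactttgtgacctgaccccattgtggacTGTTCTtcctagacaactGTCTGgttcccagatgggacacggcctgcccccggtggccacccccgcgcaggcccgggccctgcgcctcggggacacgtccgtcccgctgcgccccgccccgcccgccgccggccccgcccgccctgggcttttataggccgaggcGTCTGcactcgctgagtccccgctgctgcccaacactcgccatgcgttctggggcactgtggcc
Inhbb: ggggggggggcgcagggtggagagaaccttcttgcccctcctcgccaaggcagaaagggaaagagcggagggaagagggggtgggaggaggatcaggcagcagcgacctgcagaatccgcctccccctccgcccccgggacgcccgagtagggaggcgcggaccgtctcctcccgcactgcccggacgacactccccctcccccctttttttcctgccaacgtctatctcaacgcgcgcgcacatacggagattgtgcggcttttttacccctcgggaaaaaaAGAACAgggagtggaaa
Tgfb2: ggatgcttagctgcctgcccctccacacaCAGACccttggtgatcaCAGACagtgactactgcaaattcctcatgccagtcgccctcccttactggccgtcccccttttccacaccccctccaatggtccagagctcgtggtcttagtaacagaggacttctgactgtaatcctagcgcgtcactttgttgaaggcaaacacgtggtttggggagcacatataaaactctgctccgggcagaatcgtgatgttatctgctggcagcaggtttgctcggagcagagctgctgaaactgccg
The motifs were the glucocorticoid response element (AGAACA, any 3 bases, TGTTCT), its shorter part AGAACA, the SMAD palindrome GTCTAGAC, the shorter SMAD motif CAGAC and the GC-rich BMP element GGCGCC, with AGAACA contained in the full response element. The window of Fstl3 held AGAACA on the minus strand, 179 bases before the start, and CAGAC on the minus strand 161 and 14 bases before it. Inhbb held AGAACA 33 bases past the start, Tgfb2 held CAGAC 221 and 204 bases before it, and Ltbp4 held none of the motifs. The full response element was in none of the 33 windows and in 1 of 27025 windows of all genes, AGAACA in 4 of 33 (12.1%) and in 3 of the 10 called genes, against 19.0% of all windows. CAGAC was in 16 of 33 windows (48.5%) and in 4 of the 10, against 49.7% of all, and GGCGCC in 11 of 33 (33.3%) and in 1 of the 10, against 12.0% of all. GTCTAGAC was in 1 window of the 33, that of Smad6, which is also 1 of the 10 called, and in 0.211% of all windows. These matches are letters in a short window and do not show binding.

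Of the 10 ligand genes tested 4 rose and 1 fell, against 9.04% of all rows called higher and 6.03% called lower. Inhbb, which encodes the beta B subunit of activin B (Entrez 16324; mm9 chromosome 1, 121312042 to 121318825, minus strand), had log2 values of 8.44, 8.51, 8.52 and 8.70 in dexamethasone replicates 1 to 4, against 8.12, 8.31, 8.21 and 8.24 in vehicle replicates 1 to 4. Every dexamethasone library lay above every vehicle library. The log2 fold change was 0.32 (SE 0.058, adjusted p = 0.00348), a 1.25-fold rise. Inhba, the gene of the other common activin subunit, was below the minimum, with -0.12 in both groups.

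Bmp7, a ligand of kidney, bone and epithelia (Entrez 12162; mm9 chromosome 2, 172693513 to 172765822, minus strand), had 8.48, 8.58, 8.57 and 8.56 in dexamethasone replicates 1 to 4, against 8.68, 8.82, 8.77 and 8.84 in vehicle replicates 1 to 4. The groups did not overlap, and the log2 fold change was -0.23 (SE 0.041, adjusted p = 0.00354). Bmp4, a ligand of the BMP2 and BMP4 pair (mm9 chromosome 14, 47003195 to 47010344, minus strand), had 5.75, 5.76, 5.74 and 5.69 after dexamethasone, against 5.66, 5.59, 5.58 and 5.63 after vehicle, in the order of replicates that also holds below. It rose by 0.12 (SE 0.030, adjusted p = 0.0199) with no overlap, a call lost without both libraries that stood apart and under 5 other settings. Bmp5 (mm9 chromosome 9, 75623171 to 75748117, plus strand) had 4.16, 4.20, 4.25 and 4.28 after dexamethasone, against 4.14, 4.10, 4.09 and 4.05 after vehicle, a rise of 0.13 (SE 0.029, adjusted p = 0.0124). In the annotation 46.7% of its exon bases lie under exons of an opposite-strand transcript, Gm16662, and reads of these cannot be told apart, since no source used here gives the strand setting of the counting.

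The other BMP ligands showed no called change. Bmp3 had log2 values of 10.47 ± 0.13 after dexamethasone and 10.42 ± 0.076 after vehicle (SD, n = 4 each). Bmp2 had 5.68 ± 0.12 and 5.67 ± 0.11 in the same order. Bmp6 had 6.98 ± 0.12 after dexamethasone and 7.18 ± 0.18 after vehicle, a difference of -0.20 (adjusted p = 0.131); vehicle replicate 3 stood at 7.45. Bmp6 was called lower without both libraries that stood apart, at -0.16 (adjusted p = 0.0421). Within libraries, the difference of Inhbb and Bmp7 was -0.0067 ± 0.098 log2 units after dexamethasone and -0.56 ± 0.039 after vehicle (SD, n = 4 each). Bmp7 was lower and Inhbb higher in every dexamethasone library, so this difference had to separate the groups. It and the other differences between the log2 fold changes of 2 genes given below describe 16 pairs chosen after the values were seen, and they were not tested.

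Among the TGF-beta ligands, Tgfb2, the isoform with known roles in the eye's anterior segment (Entrez 21808; mm9 chromosome 1, 188447065 to 188529871, minus strand), had 9.29, 9.27, 9.29 and 9.28 after dexamethasone, against 9.15, 9.14, 9.16 and 9.17 after vehicle. The libraries of each group lay close together, and the groups did not overlap. The log2 fold change was 0.13 (SE 0.027, adjusted p = 0.00861). Tgfb1, the main isoform of wound healing, had 10.48, 10.26, 10.19 and 10.27 after dexamethasone, against 9.97, 10.01, 10.43 and 10.05 after vehicle. Vehicle replicate 3 overlapped the dexamethasone libraries, and the difference of 0.18 (SE 0.093, adjusted p = 0.217) was not called. Without vehicle replicate 3 it was 0.29 (adjusted p = 0.00566), and without both libraries that stood apart it was 0.23 (adjusted p = 0.00145). Tgfb3 had 9.30 ± 0.084 after dexamethasone and 9.23 ± 0.072 after vehicle (SD, n = 4 each; adjusted p = 0.345). The log2 fold change of Tgfb2 minus that of Tgfb1 was -0.054, and minus that of Tgfb3 it was 0.056.

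Levels of different genes were compared per kilobase of annotated exon, on the log2 scale. After vehicle, Bmp3 and Tgfb1 stood highest among the ligands, at 8.79 ± 0.076 and 8.76 ± 0.21, and after dexamethasone at 8.83 ± 0.13 and 8.94 ± 0.12 (SD, n = 4 each); these neighbours do not differ beyond their spread. Tgfb3, at 7.55 ± 0.084 after dexamethasone and 7.47 ± 0.072 after vehicle, and Tgfb2, at 7.01 ± 0.0085 and 6.88 ± 0.014, followed. Bmp7 lay at 6.54 ± 0.044 after dexamethasone and 6.77 ± 0.070 after vehicle, Inhbb at 6.45 ± 0.11 and 6.13 ± 0.078, Bmp6 at 5.14 ± 0.12 and 5.34 ± 0.18, and Bmp4 at 4.58 ± 0.029 and 4.46 ± 0.036. The lowest were Bmp2, at 3.85 ± 0.12 and 3.84 ± 0.11, and Bmp5, at 2.22 ± 0.052 and 2.09 ± 0.036. Apparent shrinkage and the choice of annotated exons bear on this order.

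Latent TGF-beta binding proteins hold the inactive TGF-beta complex in the extracellular matrix. Of the 5 matrix and processing genes tested 2 rose and none fell, or 40.0% called, against 15.1% of all rows. Ltbp4 (Entrez 108075; mm9 chromosome 7, 28090155 to 28122711, minus strand) had 12.63, 12.69, 12.68 and 12.72 after dexamethasone, against 12.50, 12.45, 12.42 and 12.50 after vehicle. All dexamethasone libraries were higher, and the gene rose by 0.22 (SE 0.031, adjusted p = 0.000817). Ltbp2, a microfibril protein of the eye (mm9 chromosome 12, 86124162 to 86217482, minus strand), had 8.61, 8.85, 8.55 and 8.87 after dexamethasone, against 8.53, 8.42, 8.27 and 8.55 after vehicle. Dexamethasone replicate 3 lay just below vehicle replicate 4, and the rise of 0.28 (SE 0.081, adjusted p = 0.0418) was lost under 9 of 19 settings. Ltbp3 had 12.59 ± 0.0075 after dexamethasone and 12.51 ± 0.033 after vehicle (SD, n = 4 each), with no overlap and an adjusted p = 0.0644. Ltbp1 had 11.26 ± 0.049 after dexamethasone and 11.36 ± 0.039 after vehicle (SD, n = 4 each), and its difference of -0.094 had an adjusted p = 0.0733, and 0.0218 with quantile normalization. Ltbp4's log2 fold change exceeded that of Ltbp1 by 0.31 and that of Ltbp3 by 0.14. Bmp1, which encodes a procollagen protease and not a ligand, had 10.82 ± 0.030 after dexamethasone and 10.76 ± 0.033 after vehicle (SD, n = 4 each; adjusted p = 0.179).

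Of the 10 receptor genes tested 3 rose and none fell, or 30.0% called, against 15.1% of all rows. Tgfbr3 encodes betaglycan, a co-receptor that presents TGF-beta2 and also binds inhibins (Entrez 21814; mm9 chromosome 5, 107535589 to 107718648, minus strand). It had 12.56, 12.60, 12.71 and 12.62 after dexamethasone, against 12.28, 12.25, 12.19 and 12.23 after vehicle. The gap between the groups exceeded the range within either. The log2 fold change of 0.39 (SE 0.035, adjusted p = 3.79e-05) was the largest and best supported of the 47 genes, and it lay between 0.35 and 0.41 over 19 settings.

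Acvrl1 encodes ALK1, a type I receptor for BMP9 and BMP10 found mainly on vascular endothelium (Entrez 11482; mm9 chromosome 15, 100958953 to 100975767, plus strand). It had 7.66, 7.67, 7.81 and 7.70 after dexamethasone, against 7.43, 7.34, 7.38 and 7.32 after vehicle, with no overlap, and rose by 0.34 (SE 0.042, adjusted p = 0.000273). Of 5 tested blood and lymph vessel markers Lyve1 (0.37, adjusted p = 0.00083) and Tie1 (0.19, adjusted p = 0.0178) rose and none fell, with a median of 0.13. Of all rows, 9.04% were called higher. Cdh5 (0.12, adjusted p = 0.0724) and Tek (0.062, adjusted p = 0.362) were not called. The log2 of the summed level of the vessel markers was 9.59 to 9.70 in dexamethasone libraries and 9.38 to 9.51 in vehicle libraries. This sum included Prox1, which was below the minimum. Pecam1 was 7.29 ± 0.14 after dexamethasone and 7.16 ± 0.10 after vehicle (SD, n = 4 each; adjusted p = 0.24). The part of vessel cells in the values of Acvrl1 was not tested. Eng, which encodes endoglin, the co-receptor of ALK1, had 9.99 ± 0.043 after dexamethasone and 9.91 ± 0.047 after vehicle (SD, n = 4 each; adjusted p = 0.182). Acvr1b, the type I activin receptor ALK4 (mm9 chromosome 15, 101004556 to 101043032, plus strand), had 11.45, 11.47, 11.57 and 11.54 after dexamethasone, against 11.40, 11.35, 11.39 and 11.32 after vehicle. The rise of 0.14 (SE 0.034, adjusted p = 0.0166) was lost without dexamethasone replicate 4 or vehicle replicate 4 and with the term for the lowest value of each library.

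The canonical TGF-beta receptors showed no called change. Tgfbr1 had a log2 fold change of -0.0035 with a 95% interval of -0.069 to 0.062, and Tgfbr2 one of 0.062 with an interval of -0.037 to 0.16. Tgfbr3's log2 fold change exceeded that of Tgfbr1 by 0.39 and that of Tgfbr2 by 0.32. Acvr1, Acvr2a, Acvr2b, Bmpr1a and Bmpr2 had log2 fold changes of -0.015 to 0.045, and Bmpr1b was below the minimum with 1.06 in both groups. Per kilobase of exon, Tgfbr3 stood at 9.91 ± 0.064 after dexamethasone and 9.53 ± 0.036 after vehicle on the log2 scale, Bmpr2 at 9.78 ± 0.036 and 9.74 ± 0.056, Acvr1b at 9.79 ± 0.056 and 9.65 ± 0.038, and Tgfbr1 at 9.36 ± 0.034 and 9.36 ± 0.040 (SD, n = 4 each). Tgfbr3 was thus the third of the 10 receptor genes after vehicle and the first after dexamethasone, with Acvr1b and Bmpr2 close to it. Apparent shrinkage and the choice of annotated exons bear on this order too.

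**Figure D2:**
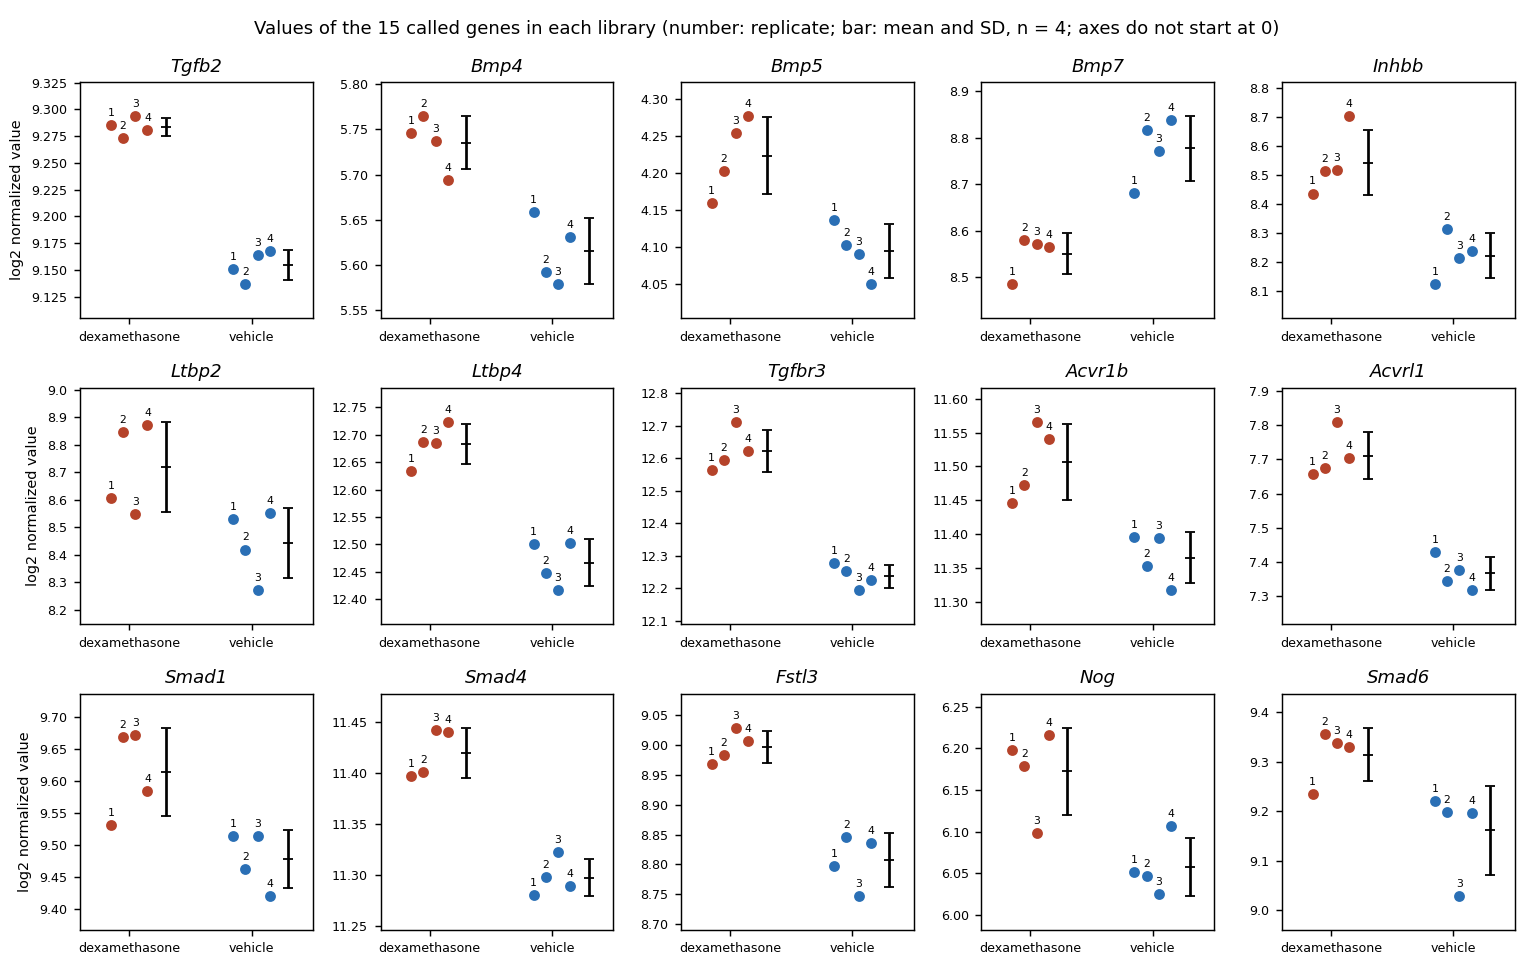
Log2 normalized values (y axis, a separate range for each gene) of the 15 called genes in the 4 dexamethasone (red) and 4 vehicle (blue) libraries, numbered by replicate, with the mean and SD as bars (n = 4). The groups do not overlap in any of these genes other than Ltbp2 and Nog.

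Among the SMADs that carry the signal, Smad4 and Smad1 rose and the other 3 were not called. The share called was 40.0% of 5 genes, against 15.1% of all rows. Smad4, the shared partner of both branches (Entrez 17128; mm9 chromosome 18, 73798663 to 73863434, minus strand), had 11.40, 11.40, 11.44 and 11.44 after dexamethasone, against 11.28, 11.30, 11.32 and 11.29 after vehicle. The groups did not overlap, and it rose by 0.12 (SE 0.025, adjusted p = 0.0081), a call lost in 1 of 19 settings, the term for the lowest value of each library. Smad1, of the BMP branch (mm9 chromosome 8, 81862294 to 81923417, minus strand), had 9.53, 9.67, 9.67 and 9.58 after dexamethasone, against 9.51, 9.46, 9.51 and 9.42 after vehicle. Its rise of 0.14 (SE 0.040, adjusted p = 0.039) was lost under 9 settings, 6 of them leaving out 1 library (all but dexamethasone replicate 1 and vehicle replicate 3). Smad5, of the same branch, had a log2 fold change of 0.00077 with a 95% interval of -0.064 to 0.065, and that of Smad1 exceeded it by 0.14.

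The TGF-beta branch SMADs did not pass the test. Smad2 had 10.66 ± 0.025 after dexamethasone and 10.70 ± 0.021 after vehicle (SD, n = 4 each; adjusted p = 0.315). The log2 fold change of Smad4 exceeded that of Smad2 by 0.16 and that of Smad3 by 0.11. Smad3 had 11.76, 11.44, 11.48 and 11.42 after dexamethasone, against 11.38, 11.38, 11.88 and 11.41 after vehicle. Its highest values in each group were those of dexamethasone replicate 1 and vehicle replicate 3, and its difference of 0.011 had a 95% interval of -0.23 to 0.25. Without both libraries that difference was 0.054 and not called (adjusted p = 0.268).

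Of the 5 tested antagonists that act outside the cell, Fstl3 and Nog rose, or 40.0%, against 15.1% of all rows called. Fstl3, a follistatin-like protein that binds activins (Entrez 83554; mm9 chromosome 10, 79240017 to 79245375, plus strand), had 8.97, 8.98, 9.03 and 9.01 after dexamethasone, against 8.80, 8.85, 8.75 and 8.84 after vehicle. The groups did not overlap, and the log2 fold change was 0.19 (SE 0.033, adjusted p = 0.00297). In the annotation 47.3% of its exon bases lie under exons of Prss57 on the opposite strand. Prss57, a serine protease gene, had 8.42 ± 0.062 after dexamethasone and 8.25 ± 0.081 after vehicle (SD, n = 4 each), a rise of 0.18 (adjusted p = 0.0259), and with no stated strand setting the reads of both genes cannot be told apart. Nog, the gene of the BMP antagonist noggin (mm9 chromosome 11, 89161952 to 89163873, minus strand), had 6.20, 6.18, 6.10 and 6.22 after dexamethasone, against 6.05, 6.05, 6.02 and 6.11 after vehicle. Dexamethasone replicate 3 lay below vehicle replicate 4, and the rise of 0.12 (SE 0.035, adjusted p = 0.0467) was lost under 12 of 19 settings, among them 7 of the 8 that leave out 1 library, the exception being dexamethasone replicate 3. Fst, the gene of follistatin, had 9.84 ± 0.065 after dexamethasone and 9.76 ± 0.071 after vehicle (SD, n = 4 each; adjusted p = 0.272). Fstl3's log2 fold change exceeded that of Fst by 0.11 and that of Fstl1 by 0.20. Chrd (chordin) had a log2 fold change of 0.057 and Fstl1 one of -0.011, neither called, and Grem1 (gremlin) was below the minimum.

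Of 8 inhibitors at the membrane or inside the cell, Smad6 rose and none fell. This share of 12.5% was below the 15.1% of all rows called. Smad6, an inhibitory SMAD of the BMP branch (mm9 chromosome 9, 63800953 to 63869866, minus strand), had 9.31 ± 0.054 after dexamethasone and 9.16 ± 0.089 after vehicle (SD, n = 4 each). The groups did not overlap, though only narrowly, and the rise of 0.15 (SE 0.046, adjusted p = 0.0467) was lost under 9 settings, 6 of them leaving out 1 library (all but dexamethasone replicate 1 and vehicle replicate 1). Smad6's log2 fold change exceeded that of Smad7, which was not called, by 0.047. Smad7, the inhibitory SMAD of both branches, had 9.19 ± 0.068 after dexamethasone and 9.09 ± 0.11 after vehicle (SD, n = 4 each; adjusted p = 0.224). It was called higher without vehicle replicate 3, at 0.16 (adjusted p = 0.0266), and without both libraries that stood apart, at 0.13 (adjusted p = 0.0392). Bambi, a pseudoreceptor that blunts signalling, had 7.03 ± 0.11 after dexamethasone and 7.18 ± 0.036 after vehicle (SD, n = 4 each; adjusted p = 0.069). It was called lower without dexamethasone replicate 2 (adjusted p = 0.0315). Ski, a nuclear repressor of SMAD activity, had 12.24 ± 0.020 after dexamethasone and 12.17 ± 0.0058 after vehicle (SD, n = 4 each), with no overlap and an adjusted p = 0.0805. The ubiquitin ligase genes Smurf1 and Smurf2 and the repressor genes Skil and Tgif1 had log2 fold changes of -0.014 to 0.025, none called.

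None of the 4 target genes in the list was called, against 15.1% of all rows. Id2, an inhibitor of helix-loop-helix factors induced by BMP signals, had 12.44 ± 0.051 after dexamethasone and 12.34 ± 0.046 after vehicle (SD, n = 4 each; log2 fold change 0.097, adjusted p = 0.0783). Vehicle replicate 1 was the vehicle library within the range of the dexamethasone libraries, and Id2 was called higher without it (adjusted p = 0.0482) and with library quality weights (adjusted p = 0.0426). Id3 had 9.32 ± 0.095 after dexamethasone and 9.15 ± 0.14 after vehicle (SD, n = 4 each; adjusted p = 0.103). Id4 had 8.06 ± 0.070 after dexamethasone and 8.12 ± 0.085 after vehicle (SD, n = 4 each; adjusted p = 0.386). Tgfbi, the TGF-beta induced matrix protein whose human mutations cause corneal dystrophies, had 15.63 ± 0.045 after dexamethasone and 15.54 ± 0.037 after vehicle (SD, n = 4 each; log2 fold change 0.099, adjusted p = 0.0795). Dexamethasone replicate 1 lay within the range of the vehicle libraries, and Tgfbi was called higher without it (adjusted p = 0.0448).

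**Figure D3:**
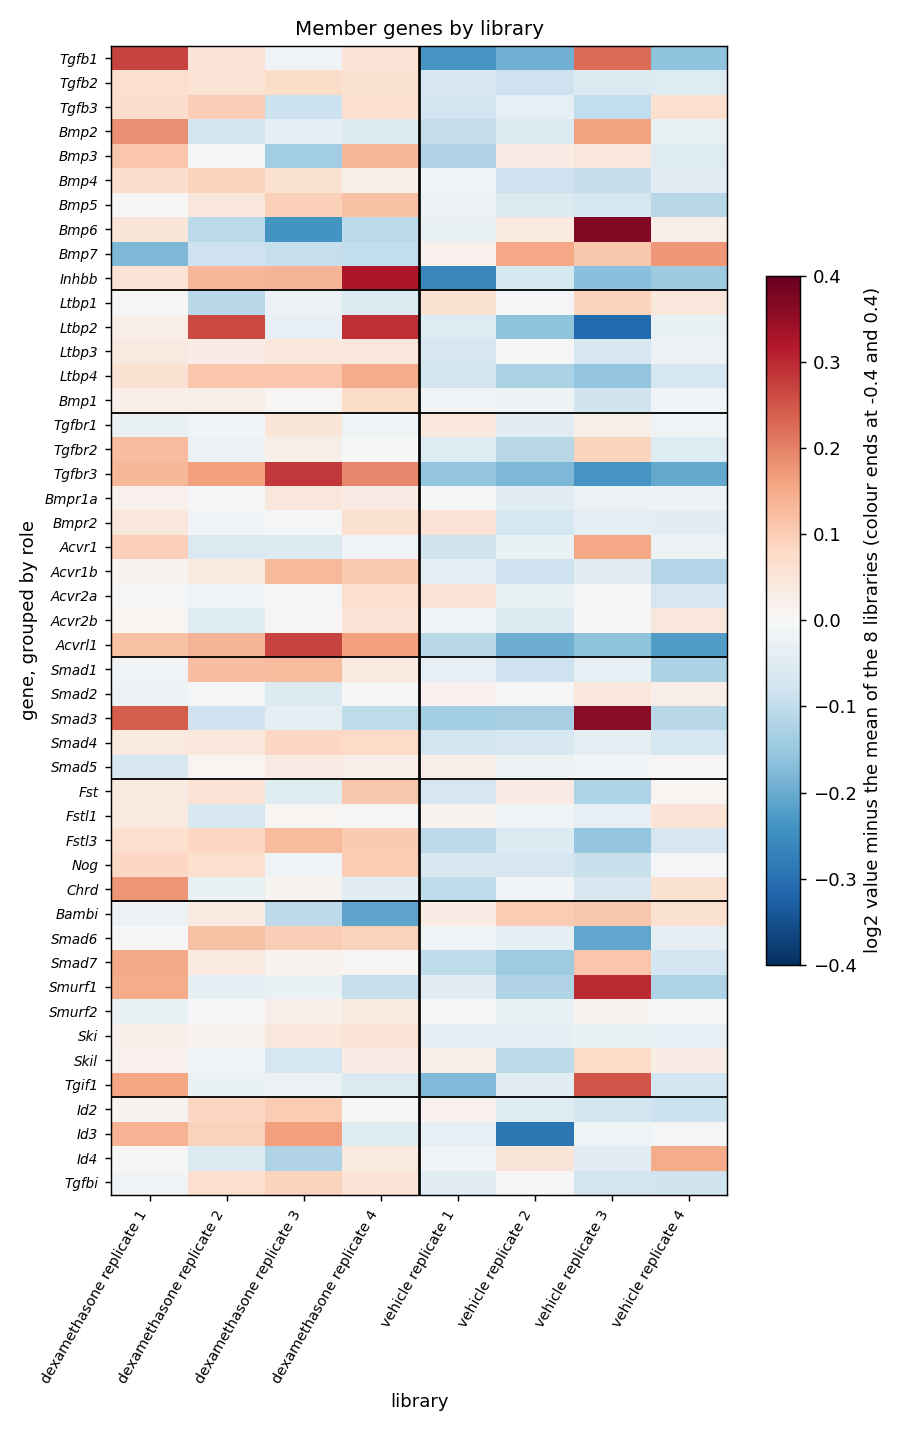
Log2 values of the 47 genes (rows, grouped by role) in the 4 dexamethasone and 4 vehicle libraries (columns), each row centred on its mean over the 8 libraries, red above and blue below it. Tgfbr3, Acvrl1 and Inhbb are above their mean in all 4 dexamethasone libraries, whereas Smad3, Smurf1 and Tgfb1 are high in dexamethasone replicate 1 and vehicle replicate 3.

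Some of the genes followed those 2 libraries more than the treatment. In 10 of the 47 genes, or 21.3%, dexamethasone replicate 1 and vehicle replicate 3 were both the highest library of their group, against 13.0% of all rows tested. In 4 genes, or 8.51%, both libraries were raised by at least 0.2, against 1.65% of all rows. The same libraries were both the lowest of their group in 4 of the 47 genes, or 8.51%, against 11.6% of all rows. For Smad3, dexamethasone replicate 1 exceeded the mean of the other libraries of its group by 0.31, and vehicle replicate 3 by 0.49. For Tgfb1 the excess was 0.24 and 0.42 in these libraries, for Smurf1 0.20 and 0.40 and for Bmp2 0.24 and 0.22. Bmp6 (0.1997 and 0.36) and Tgif1 (0.195 and 0.35) fell just short of 0.2 in dexamethasone replicate 1. The other 4 of the 10 genes were Smad7, Acvr1, Tgfbr2 and Ltbp1. None of the 10 was among the 15 called genes. They were picked by a high library within each group, which widens the spread and itself makes a call less likely. The part of the epithelial wound response in these values was not tested.

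**Figure D4:**
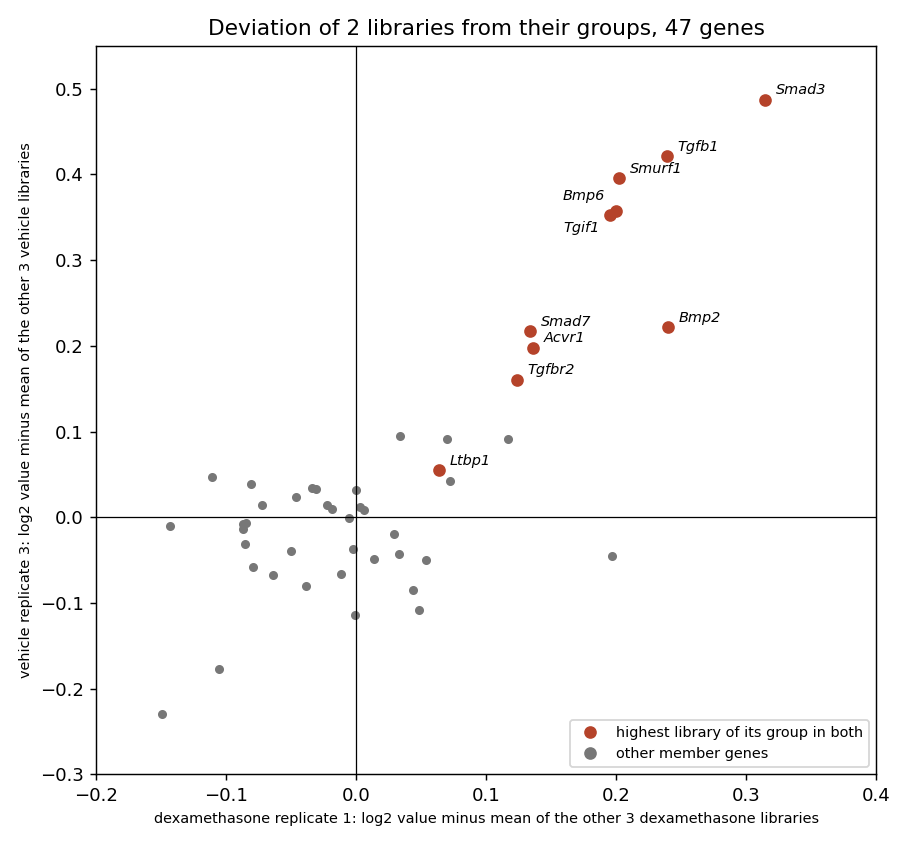
Deviation of dexamethasone replicate 1 (x axis) and vehicle replicate 3 (y axis) from the mean of the other 3 libraries of their group, in log2 units, for the 47 genes. The 10 genes in which both were the highest library of their group are red and reach 0.31 and 0.49 for Smad3.

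A further list of 101 pathway genes that are not among the 51 was written from textbook knowledge, with earlier results of these data known. It held 78 tested genes, of which 15 rose and 2 fell, or 21.8%, with a median log2 fold change of 0.036. Of all rows tested 15.1% were called, 9.04% higher and 6.03% lower, with a median of -0.0029. Among the 7 sublists the share called was below that of all rows for other ligands (14.3%), BMP target genes (14.3%) and other regulators inside the cell (9.09%), and it was highest for extracellular modulators (36.4%). Among 14 TGF-beta target genes 4 rose and none fell, or 28.6% called. Ctgf, a matrix-associated growth factor gene, had 13.67 ± 0.074 after dexamethasone and 12.74 ± 0.13 after vehicle (SD, n = 4 each), a rise of 0.93 (adjusted p = 4.44e-06); 22.9% of its exon bases lie under an opposite-strand gene, Gm15270. Snai2, a transcription factor gene of epithelial-mesenchymal change, rose by 0.24 (adjusted p = 0.00345), Fn1 (fibronectin) by 0.15 (adjusted p = 0.0179) and Postn (periostin) by 0.23 (adjusted p = 0.0402). Postn lost its call under 11 of 19 settings and Fn1 under 3. The myofibroblast genes Acta2 and Tagln had log2 fold changes of -0.0045 and 0.00056, and the collagen genes Col1a1, Col1a2 and Col3a1 had 0.055, 0.034 and 0.12, none called. Of 7 tested BMP target genes Atoh8 rose, by 0.15 (adjusted p = 0.018, lost under 3 settings), and Id1, the best known of them, had 9.01 ± 0.012 after dexamethasone and 9.03 ± 0.13 after vehicle (SD, n = 4 each; adjusted p = 0.901).

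Of 12 genes that activate or process the ligands 3 rose and 1 fell, or 33.3% called, against 15.1% of all rows. Tll1, a protease gene of the Bmp1 family that cleaves chordin, had 7.78, 7.35, 7.52 and 7.54 after dexamethasone, against 6.81, 6.81, 7.12 and 6.84 after vehicle. The groups did not overlap, and the log2 fold change of 0.65 (SE 0.089, adjusted p = 0.000612) exceeded that of each of the 47 genes. Tll2, of the same family, fell by 0.13 on the log2 scale (adjusted p = 0.0331), a call lost under 8 settings. Itgb5, a subunit of an integrin that can free latent TGF-beta, had 12.79 ± 0.029 after dexamethasone and 12.47 ± 0.042 after vehicle (SD, n = 4 each), a rise of 0.31 (adjusted p = 4.74e-05). Fbn1, the gene of the microfibril protein fibrillin-1, which binds latent TGF-beta binding proteins, rose by 0.18 (adjusted p = 0.021), with 20.1% of its exon bases under an opposite-strand gene, Gm9913. Its call was lost without both libraries that stood apart and without vehicle replicate 2. Furin, the gene of a convertase of the precursors, had 12.17 ± 0.12 after dexamethasone and 12.05 ± 0.21 after vehicle (SD, n = 4 each; adjusted p = 0.392), and it was called higher without vehicle replicate 3 (adjusted p = 0.0156) and without both libraries that stood apart (adjusted p = 0.0041).

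Of 11 other extracellular modulators 3 rose and 1 fell, or 36.4% called, against 15.1% of all rows. Bmper, the gene of a secreted BMP binding protein, had 10.16 ± 0.030 after dexamethasone and 9.96 ± 0.029 after vehicle (SD, n = 4 each), a rise of 0.20 (adjusted p = 0.000801). The BMP antagonist gene Nbl1 rose by 0.23 (adjusted p = 0.0233), a call lost under 5 settings. Twsg1, a BMP modulator that binds chordin, fell by 0.10 on the log2 scale (adjusted p = 0.0158), a call lost without vehicle replicate 4 (adjusted p = 0.0578) and with the term for the lowest value of each library (adjusted p = 0.0797). Of 5 other receptors and co-receptors Rgma rose. Rgma, a BMP co-receptor of the repulsive guidance family, had 10.73, 10.62, 10.66 and 10.69 after dexamethasone, against 10.29, 10.31, 10.39 and 10.24 after vehicle, a rise of 0.37 (SE 0.037, adjusted p = 7.39e-05). Of 7 other ligands Bmp8a rose (14.3% called), by 0.10 at a mean of 3.52 after dexamethasone and 3.42 after vehicle. Of 22 other regulators inside the cell 2 rose, or 9.09% called. Wwp1, a ubiquitin ligase gene, rose by 0.16 (adjusted p = 0.0044). Usp15, a deubiquitinase gene, rose by 0.11 (adjusted p = 0.0294), a call lost under 9 settings.

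**Figure D5:**
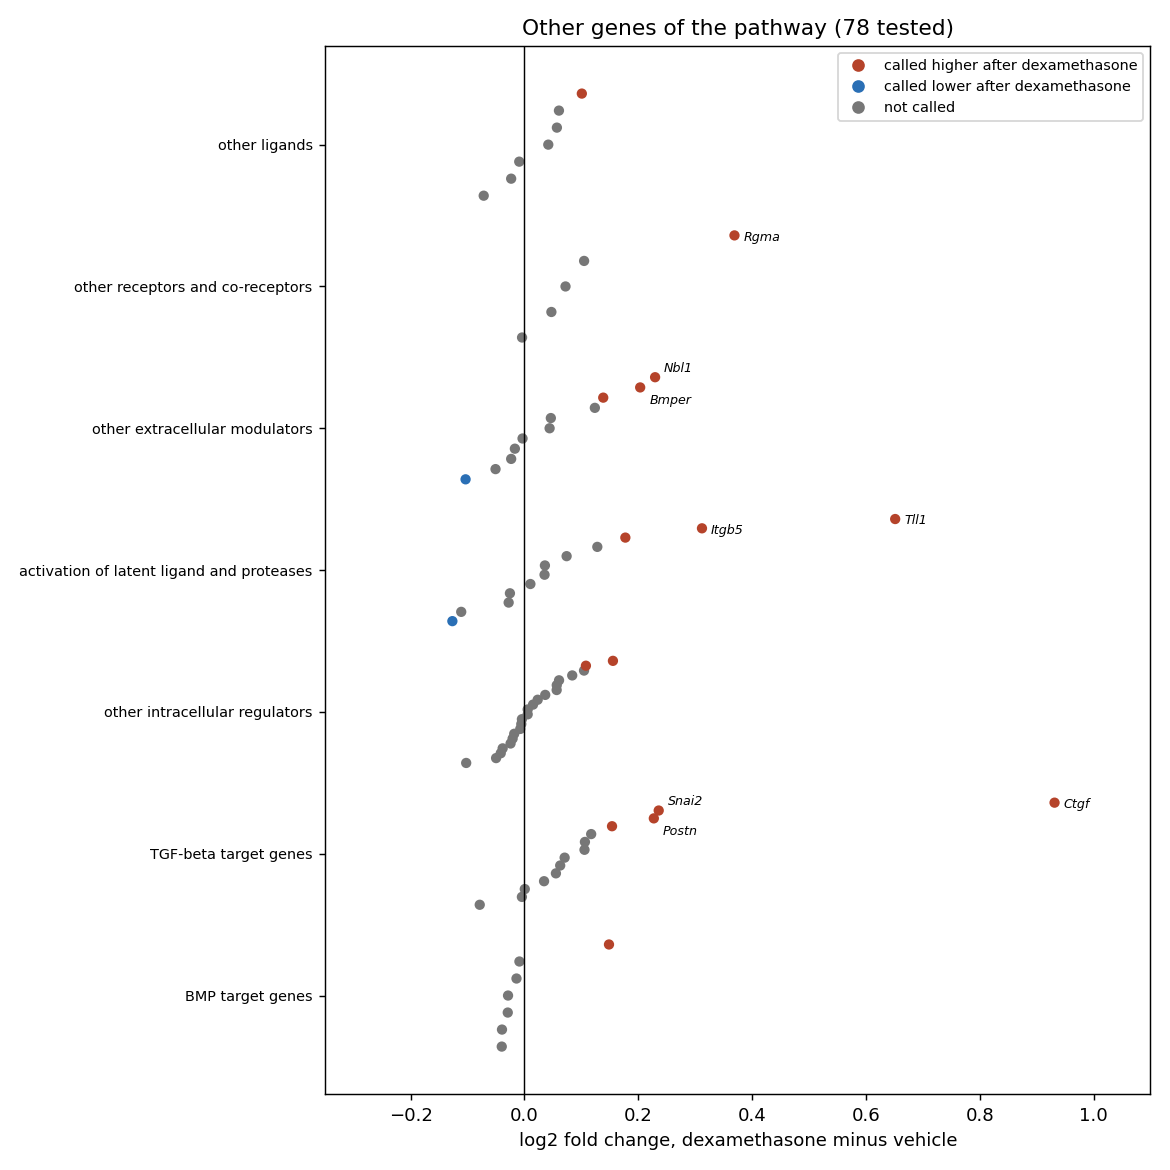
Log2 fold changes, dexamethasone minus vehicle (x axis), of the 78 other tested pathway genes by list, with the names of called genes that changed by at least 0.2. Ctgf lies at 0.93 and Tll1 at 0.65, the 2 genes called lower lie at -0.13 and -0.10, and most other genes lie close to 0.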

How the data were processed

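RNA of whole corneas was sequenced as paired-end reads of 75 bp, per the labels. The submitters' processing notes name Bowtie2, HTSeq, DESeq2 and build mm9. Their versions, the annotation, the strand setting and the transformation were not given in the sources used here, so overlapping genes on opposite strands are reported as uncertain. The authors deposited log2 normalized values for 24918 rows, of which 5078 were 0 in all 8 libraries, and 0 columns were left unused. Low values appear shrunken, and no depth could be recovered.

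For rows with a mean of at least 3, dexamethasone and vehicle libraries were compared in limma 3.58.1 under R 4.3.3 (empirical Bayes with a variance trend, two-sided, Benjamini-Hochberg over 14715 rows, called below 0.05). Errors are SDs over 4 libraries or moderated standard errors. Exact tests, motifs and coordinates (GENCODE vM1, which is on NCBIM37, equal to mm9; all 47 symbols matched 1 gene, 11 with exons under another gene) used Python 3.11.15, NumPy 2.4.6, SciPy 1.17.1 and pandas 2.3.3. The fit was tested on simulated data. The members, lists and settings were chosen with earlier results of these data known. Genes were named by a rule: every member, with each library's value for the 14 called members of smallest adjusted p, and up to 4 called genes of each other list, some of which are not reported here. Eng, Furin, Id1, Acta2, Tagln, the collagen genes, the tissue markers and the 16 pairs of genes were chosen after their values were seen. The alternatives were a replicate block, quantile or median normalization, no filter or a minimum of 5, 8 added on the linear scale, no trend, robust moderation, library quality weights, each library left out in turn and both libraries that stood apart left out. The term for the lowest value of each library was added after seeing the data. Count tests were not run, since the values are not counts.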

Additional observations from a re-analysis of the deposited data

Results flagged for a closer look

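In 16 of 128 sets of 4 libraries, over the 47 genes and 17 other pathway genes named, a single library lay apart from the rest by more than Dixon's 95% critical share of the group's range; chance gives about 1 in 20, or 6.4. In 6 of them that library was vehicle replicate 3: highest for Smad3 (ratio 0.946; 11.88 against 11.38 to 11.41 in the other 3), Tgfb1 (0.833; 10.43 against 9.97 to 10.05), Tll1 (0.908) and Ctgf (0.896), and lowest for Smad6 (0.882) and Bmp1 (0.831). In 4 it was dexamethasone replicate 1: highest for Bmp2 (0.837) and Tgif1 (0.844), and lowest for Bmp7 (0.841) and Itgb5 (0.843). Acvr2a was high in dexamethasone replicate 4 (0.952), Tgfb3 low in dexamethasone replicate 3 (0.83) and Twsg1 low in dexamethasone replicate 2 (0.976). Id3 was low in vehicle replicate 2 (0.913; 8.95 against 9.20 to 9.23), Nbl1 in vehicle replicate 1 (0.866) and Bmp8a in vehicle replicate 4 (0.833).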

How the results depend on the processing

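Of 891 log2 fold changes of the 47 genes under 19 alternatives, 51 lost and 10 gained a call; 51 changed sign in genes called under neither fit, and none in a called gene. Leaving out 1 library gave 9 to 14 risers and 1 to 2 fallers among the 47 genes, 10 to 18 and 0 to 2 among the other pathway genes, and 918 to 1302 and 493 to 829 among all rows. The number of fallers among the 47 was 2 with quantile normalization (Ltbp1 added) and without both libraries that stood apart (Bmp6 added). Among the other pathway genes the replicate block and the lack of a filter each left 1 faller. The term for the lowest value of each library left 755 risers and 413 fallers in all rows, 5 risers among the 47 and 0 fallers among the other genes. The median of the 47 was 0.039 with quantile normalization and 0.082 with that term; the cause was not tested. Replicate numbers did not pair the libraries (correlations of deviations -0.31, 0.19, -0.14 and 0.14); the replicate block left 10 risers and 1 faller among the 47, with Bmp4, Smad1, Nog and Smad6 no longer called. Bmp5 and Acvr2b gave no value with a minimum of 5. Unknown depth and apparent shrinkage limit low genes most.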
